A study of Mus musculus with 6 samples.

Results

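Tubulin transcripts were examined in the livers of mice fed a diet that causes metabolic dysfunction-associated steatohepatitis (MASH). The gene family described here is that of the alpha and beta tubulin isotypes. It was taken as 10 rows of the deposited gene table, chosen by gene symbol, out of 25403 genes listed. There were 5 alpha members (*Tuba1a*, *Tuba1b*, *Tuba1c*, *Tuba4a* and *Tuba8*) and 5 beta members (*Tubb2a*, *Tubb2b*, *Tubb4b*, *Tubb5* and *Tubb6*). The family was picked because *Tubb2b* had one of the largest rises between the groups of livers, so the differences of its members between those groups are given as a description, without p-values. All 10 were among the 14496 genes with enough counts to be tested, and no member was lost to the filter on low counts.

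The study sequenced poly(A) RNA from 3 livers labelled wild-type (WT) and 3 livers labelled *Themis*-KO. WT mice were C57BL6/J, and the knockout mice lacked *Themis* in the whole body rather than in one cell type. Both groups received the same diet, with 40% of energy as fat, 20% as fructose and 2% cholesterol, from an age of 10 to 12 weeks and for 3 months. The study fed male mice in this experiment, but its methods also speak of livers of both sexes for gene expression, and the labels give no sex for a library. The part of *Themis* that the deletion removes was not given in the sources used here.

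Facts about the libraries stand before the results because they touch all of them. Each library held between 20679642 and 25649767 counts on genes. The level of *Themis* did not separate the labels: in CPM, the count scaled to library size, it was 8.07 to 25.6 in the livers labelled WT and 7.74 to 9.97 CPM in those labelled *Themis*-KO, and WT 1, at 8.07, lay inside the range of the second group. For this reason groups are named by their labels. Livers WT 1 and WT 2 also stood apart from the other 4 in a mitochondrial pair of genes, with *Gm28438* taking 96.6% and 96.8% of the counts of *Gm28438* and *mt-Nd3* together, against 2.2% to 3.26% in WT 3 and the livers labelled *Themis*-KO. All 12 hepatocyte markers examined were detected, with a summed level of 57790 to 79130 CPM. Of all genes tested, 721 (4.97%) were higher and 600 (4.14%) lower in the livers labelled *Themis*-KO at an adjusted p under 0.05 (edgeR's quasi-likelihood test).

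Alpha and beta tubulin pair into the heterodimers from which microtubules are built, the filaments along which a hepatocyte moves secretory vesicles and on which dividing cells pull their chromosomes apart. The isotypes of each type are encoded by separate genes whose proteins are alike except mainly in the acidic tail at the end of the chain, where enzymes add and remove tyrosine, glutamate and glycine. Tubulin mRNA is also known for autoregulation: when free dimers are in excess, the factor TTC5 binds the first residues of a tubulin chain as it leaves the ribosome, and the mRNA being translated is degraded.

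The coding starts are shown because they write those first residues. Each line gives the first 12 coding bases on GRCm38 (GENCODE vM21 annotation), with the start codon in capitals.
Tuba1a: ATGcgtgagtgc
Tuba1b: ATGcgtgagtgc
Tuba1c: ATGcgtgagtgc
Tuba4a: ATGcgcgagtgc
Tuba8: ATGagggaatgc
Tubb2a: ATGcgcgagatc
Tubb2b: ATGcgagagatc
Tubb4b: ATGagggagatc
Tubb5: ATGagggaaatc
The 3 *Tuba1* genes had the same bases, and every alpha member shown ended this stretch in tgc where every beta member shown ended it in atc.

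Summed over the family, tubulin counts were higher in every liver labelled *Themis*-KO than in any labelled WT. Sums are given first because near-identical genes share reads and the counting program divides those reads among them. The 5 beta members together held 211.7, 287.8 and 340.0 CPM in WT 1, 2 and 3 and 884.8, 833.1 and 641.9 CPM in *Themis*-KO 1, 2 and 3. Means were 279.8 ± 64.5 and 786.6 ± 128 CPM (SD, n = 3 in each group), a 2.81-fold difference (1.49 on the log2 scale). For the 5 alpha members the sums were 163.6, 194.3 and 204.3 CPM against 331.4, 341.2 and 304.2 CPM, with means of 187.4 ± 21.2 and 325.6 ± 19.2 CPM (SD, n = 3), a 1.74-fold difference (0.80 on the log2 scale). All 10 members summed to 375.3, 482.2 and 544.3 CPM against 1216, 1174 and 946 CPM, a 2.38-fold difference of the group means (1.25 on the log2 scale). The groups did not overlap in any of the 3 sums, with the lowest liver labelled *Themis*-KO 1.89 times the highest labelled WT for beta and 1.49 times for alpha. Without WT 1 and WT 2, the group labelled *Themis*-KO remained above WT 3, by 0.67 on the log2 scale for the alpha sum, 1.21 for the beta sum and 1.03 for all 10. In RNA from whole liver, a change in the number of cells of one type and a change in the RNA of each cell cannot be told apart.

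Taken one by one, all 10 members were higher in each liver labelled *Themis*-KO than in each labelled WT. Among all genes tested, 17.7% had this pattern. Past the adjusted p of 0.05 were 9 members (4 of 5 alpha and 5 of 5 beta, all but *Tuba8*), beside 4.97% of all genes in this direction and 9.11% in either. A log2 fold change of at least 1 was reached by 5 members (*Tuba1c*, *Tuba8*, *Tubb2a*, *Tubb2b* and *Tubb6*), beside 4.21% of all genes, and nothing is read from these counts because the family was chosen on this contrast. The count past the adjusted p also depended on single livers, being 0 without WT 2 or without *Themis*-KO 1, 1 without *Themis*-KO 2, 2 without WT 1, 7 without WT 3 and 9 without *Themis*-KO 3, while the log2 fold changes stayed above 0 in all of these fits. The median log2 fold change was 0.90 over the alpha members and 1.57 over the beta members, where the median over all genes tested was 0.0095.

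**Figure D1:**
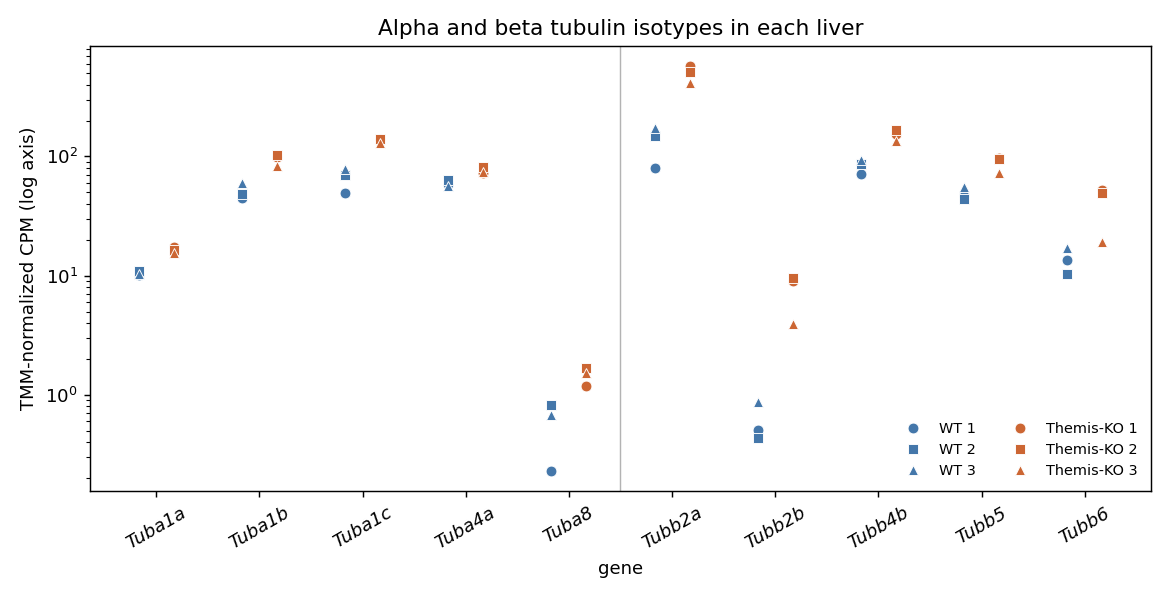
TMM-normalized CPM (log axis) of the 10 isotypes, with alpha members on the left and beta members on the right; blue points are the 3 livers labelled WT, orange points the 3 labelled *Themis*-KO, and marker shape gives the replicate number. For each gene all orange points lie above all blue ones, with the widest gap at *Tubb2b* (0.432 to 0.868 against 3.92 to 9.63 CPM) and the smallest log2 fold change at *Tuba4a* (0.35).

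*Tubb2b* (ENSMUSG00000045136), an isotype best known from developing neurons, was near the lower end of detection in the livers labelled WT, with 11, 9 and 22 counts (0.505, 0.432 and 0.868 CPM). In *Themis*-KO 1, 2 and 3 it had 211, 224 and 83 counts (8.97, 9.63 and 3.92 CPM). The log2 fold change was 3.61 ± 0.43 (SE), the largest of the family. Liver 3 was the highest of its group for WT and the lowest for *Themis*-KO, and even these differed by more than the whole range within WT.

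The sister gene *Tubb2a* (ENSMUSG00000058672) was far more abundant, at 79.4, 147.6 and 173.6 CPM in the livers labelled WT and 571.8, 511.4 and 411.6 CPM in those labelled *Themis*-KO. Its log2 fold change was 1.90 ± 0.28 (SE). Counted on the same libraries, *Tubb2b* came to 0.635%, 0.293% and 0.5% of the *Tubb2a* counts in WT 1, 2 and 3, and to 1.57%, 1.88% and 0.952% in *Themis*-KO 1, 2 and 3. The share was thus higher in all livers of the second group, with WT 1 and *Themis*-KO 3 the nearest pair. Summed into 1 gene before the fit, the pair had a log2 fold change of 1.91 ± 0.28 (SE), and the beta sum without *Tubb2b* differed 2.79-fold. Leaving out both genes, the beta sum still differed 1.93-fold (0.95 on the log2 scale).

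*Tubb6* (ENSMUSG00000001473), a divergent beta isotype, had 13.4, 10.2 and 16.9 CPM against 51.9, 49.1 and 19.3 CPM, with a log2 fold change of 1.57 ± 0.36 (SE). *Themis*-KO 3 was close to WT 3 here, while the other 2 livers of its group lay well above both. Next came the widely expressed *Tubb4b* (ENSMUSG00000036752), at 71.4, 85.7 and 93.1 CPM against 154.3, 167.1 and 134.9 CPM. Its log2 fold change was 0.87 ± 0.13 (SE). *Tubb5* (ENSMUSG00000001525), the beta isotype that most dividing cells rely on, had 46.9, 43.9 and 55.6 CPM against 97.9, 95.9 and 72.1 CPM, a log2 fold change of 0.86 ± 0.14 (SE).

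Among alpha genes, the largest difference at a high count was that of *Tuba1c* (ENSMUSG00000043091), at 49.6, 70.3 and 77.7 CPM in the livers labelled WT and 140, 139.6 and 129.7 CPM in those labelled *Themis*-KO, a log2 fold change of 1.05 ± 0.16 (SE). *Tuba1b* (ENSMUSG00000023004), the alpha isotype of most tissues, had 45.0, 48.5 and 59.5 CPM against 99.6, 102.6 and 83.8 CPM, a log2 fold change of 0.90 ± 0.13 (SE). For *Tuba1a* (ENSMUSG00000072235), the main alpha isotype of young neurons, values were lower, at 10.1, 11.0 and 10.3 CPM against 17.55, 16.3 and 15.5 CPM. Its log2 fold change was 0.65 ± 0.10 (SE).

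*Tuba4a* (ENSMUSG00000026202), known for a chain made without the terminal tyrosine that *Tuba1c*, for example, encodes, had the smallest difference of the family. Its levels were 58.6, 63.7 and 56.0 CPM against 73.1, 81.0 and 73.6 CPM, a log2 fold change of 0.35 ± 0.087 (SE). *Tuba8* (ENSMUSG00000030137), a rarely used alpha isotype, rested on few reads, with 5, 17 and 17 counts in the livers labelled WT and 28, 39 and 32 counts in those labelled *Themis*-KO. Its log2 fold change of 1.34 ± 0.41 (SE) moved to 0.97 without WT 1, the liver with 5 counts.

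Within each group the livers kept some order across the isotypes. WT 3 was the highest of its group for 7 of the 10 members and WT 1 the lowest for 6, while *Themis*-KO 3 was the lowest of its group for 8 and the highest for 0. The members share these libraries, so the order describes the livers and is not 10 separate observations.

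To compare levels between isotypes, CPM were divided by the length in kilobases of 1 transcript per gene. On that scale *Tubb2a* was the most abundant isotype in both groups, with means of 82.9 CPM per kilobase in the livers labelled WT and 309 in those labelled *Themis*-KO. *Tubb4b* followed with 52.2 and 95.2, then *Tuba1c* with 33.2 and 68.8 and *Tuba1b* with 29.3 and 54.7 CPM per kilobase. In the livers labelled WT, neighbours in this order that overlapped between livers included *Tubb2a* and *Tubb4b*, *Tuba1c* and *Tuba1b*, *Tuba4a* (20.9) and *Tubb5* (18.4), and *Tubb6* (7.68) and *Tuba1a* (5.83). In those labelled *Themis*-KO, *Tubb5* (33.5) overlapped with *Tuba4a* (26.7), and *Tuba4a* with *Tubb6* (22.8). *Tubb2b* (0.276 and 3.44) and *Tuba8* (0.253 and 0.645) were the least abundant in both groups, and they overlapped in the livers labelled WT but not in those labelled *Themis*-KO. *Tuba4a* and *Tubb5* were the only members to change places in the order of group means.

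As shares of all beta counts per kilobase, *Tubb2a* made up 41.2%, 54.6% and 54.7% in WT 1, 2 and 3 and 68%, 64.7% and 67.3% in *Themis*-KO 1, 2 and 3. The shares of *Tubb4b* (33 ± 4% and 20.7 ± 1.94%, SD, n = 3) and *Tubb5* (11.8 ± 2.66% and 7.21 ± 0.155%, SD, n = 3) were lower in the second group even though their own levels were higher. *Tubb2b* remained a minor part of the beta pool, at 0.171 ± 0.0462% and 0.72 ± 0.221% (SD, n = 3). Among alpha members the make-up shifted less: *Tuba1c* held 36.8 ± 3.84% and 43.1 ± 0.99%, *Tuba4a* 23.7 ± 3.45% and 16.7 ± 0.884%, and *Tuba1b* 32.7 ± 2.25% and 34.1 ± 1.55% (SD, n = 3). The ratio of summed beta to summed alpha, both in CPM per kilobase, was 1.55, 1.82 and 1.99 in the livers labelled WT and 3.19, 2.93 and 2.56 in those labelled *Themis*-KO. These shares come from the same counts as the fold changes above and are a description.

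**Figure D2:**
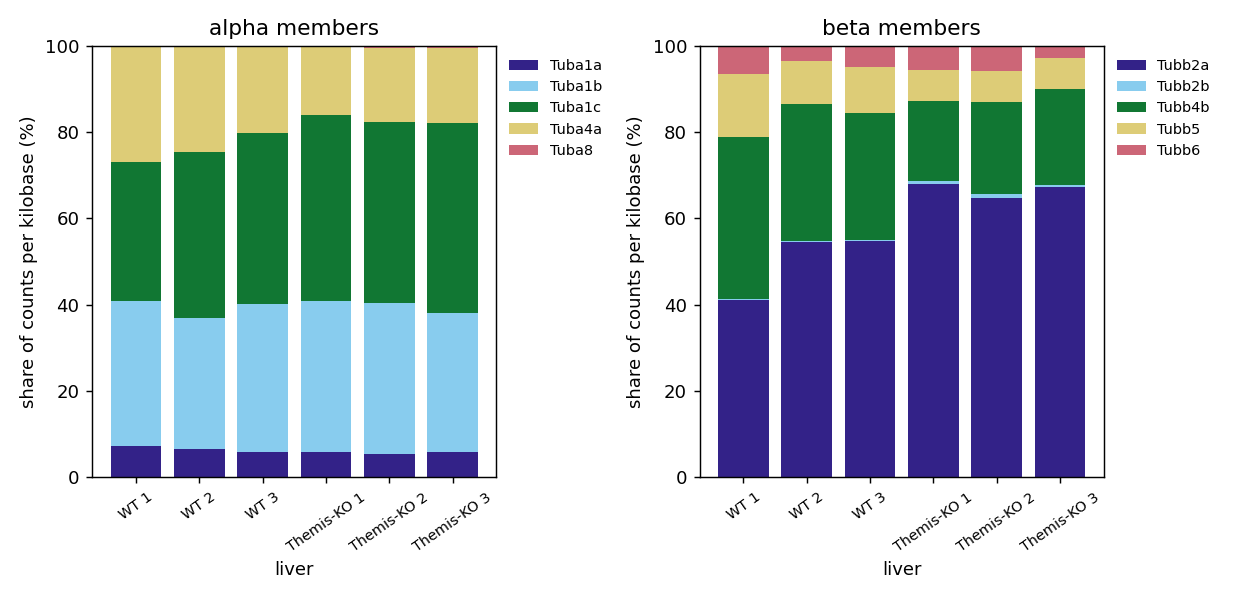
Make-up of the alpha (left) and beta (right) tubulin counts in each liver, as the percent of the summed counts per kilobase of transcript; each bar is 1 liver and each color 1 gene. *Tubb2a* fills 41.2% to 54.7% of the beta bar in the livers labelled WT and 64.7% to 68% in those labelled *Themis*-KO, and *Tubb2b* is a thin band in all 6.

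How far single isotypes can be told apart was measured on the transcripts themselves, as the percent of 150-base windows (about the read length) that occur letter for letter in a transcript of another gene. It was 57.9% for *Tuba1b*, 54.7% for *Tuba1a* and 46.7% for *Tuba1c*, shared with each other, with the coding gene *Gm49450* (431 windows of *Tuba1a*, 430 of *Tuba1b* and 352 of *Tuba1c*) and with other predicted genes. For *Tubb2a* it was 27.9% and for *Tubb2b* 20.1%, made up of 408 windows that the pair shares in the coding part (34.3% of the coding windows of each). None of the 574 windows inside the 3′ untranslated part of *Tubb2b* was shared. *Tubb4b* shared 16.8% with the pseudogene *Tubb4b-ps1*, and *Tuba4a*, *Tuba8*, *Tubb5* and *Tubb6* shared 0%. The split of counts among the 3 *Tuba1* genes and between *Tubb2a* and *Tubb2b* is therefore uncertain to an extent that the deposited values do not give, and the effect of the division of reads on these values was not tested.

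**Figure D3:**
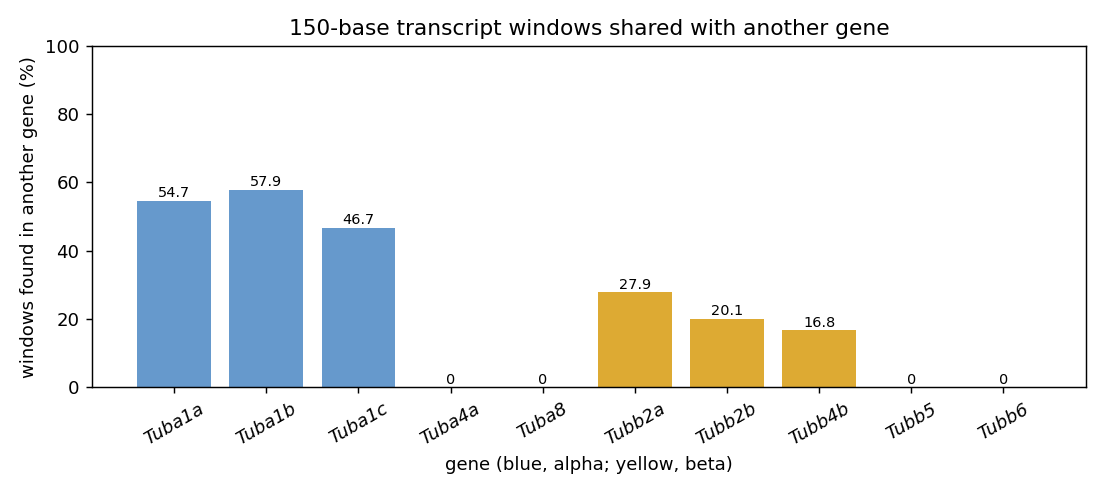
Percent of the 150-base windows of each member's transcript that occur exactly in a transcript of another gene; blue bars are alpha and yellow bars beta members. The *Tuba1* genes stand at 46.7% to 57.9%, *Tubb2a* and *Tubb2b* at 27.9% and 20.1%, and 4 members at 0%.

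*Tubb2a* (chr13:34074274-34078007, minus strand) and *Tubb2b* (chr13:34126748-34130466, minus strand) lie 48740 bases apart on GRCm38. Their coding sequences were identical at 1291 of 1338 aligned positions (96.5%), with a longest identical stretch of 551 bases. Over all pairs, identity was 78.8% to 98.3% among the alpha members and 80.1% to 96.5% among the beta members. The end of the coding sequence, which encodes the tail, is shown for some of the isotypes with the largest differences or the highest counts. Each line holds the last 60 coding bases up to the stop codon (GRCm38, GENCODE vM21), and capitals mark the positions at which *Tubb2a* and *Tubb2b* differ from each other.
Tubb2a: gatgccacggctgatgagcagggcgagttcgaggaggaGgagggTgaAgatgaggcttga
Tubb2b: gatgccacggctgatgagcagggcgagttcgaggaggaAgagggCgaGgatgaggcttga
Tubb4b: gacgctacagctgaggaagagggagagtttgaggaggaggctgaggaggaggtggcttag
Tubb5: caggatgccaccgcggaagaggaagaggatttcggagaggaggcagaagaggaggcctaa
Tuba1c: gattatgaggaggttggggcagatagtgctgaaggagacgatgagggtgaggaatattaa
Tuba4a: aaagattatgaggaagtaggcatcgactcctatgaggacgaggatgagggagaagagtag
The coding ends of *Tubb2a* and *Tubb2b* differed at 3 bases, none of which changes the encoded residue, so this stretch writes the same tail. *Tubb4b* and *Tubb5*, whose transcripts shared no window with *Tubb2a* or *Tubb2b*, ended in sequences of their own. The 3 *Tuba1* genes lie together on chromosome 15, *Tuba1b* at chr15:98931425-98934565 and *Tuba1a* at chr15:98949837-98953703 on the minus strand and *Tuba1c* at chr15:99029891-99038110 on the plus strand. *Tuba4a* is at chr1:75214228-75219865 on the minus strand.

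Some members overlap other genes. *Tuba4a* overlaps exons of *Stk16*, a kinase gene on the opposite strand with 1207 to 1638 counts in each liver, and whether reads were counted by strand is not given in the sources used here, so reads of these 2 genes may not be separable. Opposite-strand neighbours of *Tuba1b*, *Tuba8* and *Tubb4b* had at most 2 counts in any liver. *Gm49450* is annotated on the same strand across *Tuba1a* and *Tuba1b* in GENCODE vM21. It is absent from the genes listed for these livers, so how reads that fit it were treated is unknown.

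Promoters were looked at because the members moved together, and 8 of the 10 had an entry in the RefSeq promoter table (build GRCm38.p6), all but *Tubb2b* and *Tubb6*. Each was read over the 250 bases before the start that RefSeq gives the gene for TATAAA (the TATA box), CCAAT (the CCAAT box) and GGGCGG (the GC box), on both strands. GENCODE places some starts elsewhere, so that 5 of the 8 windows reached into the gene spans of that annotation and 3 did not (*Tubb2a*, *Tubb4b* and *Tuba1c*). A TATAAA was found in 1 of the 8 (12.4% of all 32851 promoters of this length), a CCAAT in 4 (33.8% of all) and a GGGCGG in 5 (32.7% of all). Their GC content was 49.2% to 75.6%, where the median of all promoters was 52.4%. The promoters of the 3 isotypes with the highest level per kilobase are printed, in the direction of transcription, with the motifs in capitals.
Tubb2a, chr13:34078009-34078258 (minus strand): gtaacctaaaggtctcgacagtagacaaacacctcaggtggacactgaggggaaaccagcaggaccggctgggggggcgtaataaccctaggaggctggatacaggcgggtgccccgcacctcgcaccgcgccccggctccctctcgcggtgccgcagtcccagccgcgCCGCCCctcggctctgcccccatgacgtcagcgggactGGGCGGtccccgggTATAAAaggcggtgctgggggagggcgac
Tubb4b, chr2:25224703-25224952 (minus strand): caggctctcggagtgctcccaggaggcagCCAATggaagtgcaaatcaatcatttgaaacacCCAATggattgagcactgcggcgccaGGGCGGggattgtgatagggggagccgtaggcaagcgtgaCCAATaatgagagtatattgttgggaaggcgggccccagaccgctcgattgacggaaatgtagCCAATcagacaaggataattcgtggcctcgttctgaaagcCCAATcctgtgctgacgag
Tuba1c, chr15:99029641-99029890 (plus strand): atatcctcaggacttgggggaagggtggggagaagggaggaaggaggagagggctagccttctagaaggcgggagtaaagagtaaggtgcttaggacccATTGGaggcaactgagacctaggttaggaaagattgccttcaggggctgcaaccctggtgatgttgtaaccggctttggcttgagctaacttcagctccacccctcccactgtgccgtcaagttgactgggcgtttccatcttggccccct
The *Tubb2a* window held the only TATAAA and 2 GC boxes, that of *Tubb4b* held 5 CCAAT and 1 GC box, and that of *Tuba1c* held 1 CCAAT. None of the 3 motifs was in all 3 windows. No 2 matches overlapped in these windows, and a match of letters is only a description.

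The remaining tubulin genes were not called. Of 10 on the list 8 were in the table and 4 could be tested. None passed the adjusted p of 0.05 in edgeR or in DESeq2, nor an unadjusted p of 0.05 in edgeR. Among all 14496 genes tested, DESeq2 called 1279 higher and 1090 lower. In edgeR with another scaling (RLE size factors), 4488 of them had an unadjusted p under 0.05 in either direction. Those numbers are the background for the DESeq2 and unadjusted counts of the lists and markers below. The unadjusted background is approximate and not split by direction, because the lists and markers were counted in the main fit, with TMM scaling. For *Tubb4a*, a beta isotype of myelinating glia, the log2 fold change was 0.83 ± 0.38 (SE) with an adjusted p of 0.180 in edgeR. *Tubg1*, the gamma-tubulin that starts microtubules, had −0.27 ± 0.12 (adjusted p = 0.185), *Tubd1*, the delta-tubulin of centrioles, −0.16 ± 0.18 (adjusted p = 0.571) and *Tube1*, the epsilon-tubulin of centrioles, −0.41 ± 0.35 (adjusted p = 0.455). Below the filter, the neuronal *Tubb3* had 5, 1 and 6 counts in the livers labelled WT and 11, 31 and 3 in those labelled *Themis*-KO, with overlap between the groups. *Tubb1*, the beta isotype of platelets, had 1, 2 and 9 counts against 2, 4 and 3, *Tubg2* had 2, 2 and 7 against 12, 1 and 8, and *Tubal3* had 1 count in all 6 livers together.

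The machinery that folds tubulin had summed levels that overlapped between the groups. The list held the 8 subunits of the CCT chaperonin, prefoldin and the tubulin cofactors, and of its 22 genes, all tested, 0 were higher and 0 lower in edgeR. At an unadjusted p of 0.05 the numbers were 0 and 1, and in DESeq2 0 and 1. Their median log2 fold change was 0.016, and their summed level was 1306 to 1367 CPM in the livers labelled WT and 1304 to 1356 CPM in those labelled *Themis*-KO. The lowest was *Tbccd1*, a relative of the cofactors, at −0.59.

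The list for tubulin modification also held no call, with 0 of 18 tested genes higher and 0 lower in edgeR and in DESeq2. It took in the tyrosine ligase *Ttl*, the vasohibins, the *Ttll* group, the acetylase *Atat1*, their opponents and other factors such as *Ttc5*. At an unadjusted p of 0.05, 2 were higher and 1 lower, and the median log2 fold change was 0.015. *Ttc5*, the factor of tubulin autoregulation described above, had 8.67, 10.8 and 9.87 CPM in the livers labelled WT and 8.88, 9.42 and 11.1 CPM in those labelled *Themis*-KO, for which the log2 fold change was 0.003 ± 0.14 (SE) and the edgeR adjusted p 0.992. Its livers overlapped, and the standard error leaves room for differences of some size in either direction. A further list held the gamma-tubulin ring complex, which nucleates microtubules, and proteins associated with it. Of its 11 tested genes 0 were called in edgeR, with 0 higher and 2 lower at an unadjusted p of 0.05. In DESeq2 1 was lower, and the median log2 fold change was −0.073.

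Proteins that bind microtubules gave 4 calls, all higher, among 39 tested genes (10.3%, beside 4.97% of all genes). *Clip2*, which tracks growing ends, was higher by 1.15 ± 0.22 on the log2 scale (SE), with an adjusted p of 0.0302 in edgeR. *Map1s*, a stabilizing protein, had 0.79 ± 0.17 (adjusted p = 0.0345), *Stmn1*, which sequesters free tubulin dimers, 0.77 ± 0.17 (adjusted p = 0.0371), and *Map4*, the main such protein outside neurons, 0.39 ± 0.071 (adjusted p = 0.0253). The median of the list was 0.25. Among motors and their adaptors, 1 of 40 tested genes was higher (2.5%), *Ndel1*, a partner of dynein, at 0.41 ± 0.084 (SE, adjusted p = 0.0336, edgeR), and the median was 0.13. Over the 5 pathway lists and the remaining tubulin genes, 5 of 134 tested genes (3.73%) were higher and 0 lower, a share near the 4.97% of all genes. The 5 calls were lost when WT 1, WT 2, *Themis*-KO 1 or *Themis*-KO 2 was left out and when replicate numbers were fitted as blocks (adjusted p of 0.0917 to 0.113), and 23 genes were higher without *Themis*-KO 3.

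**Figure D4:**
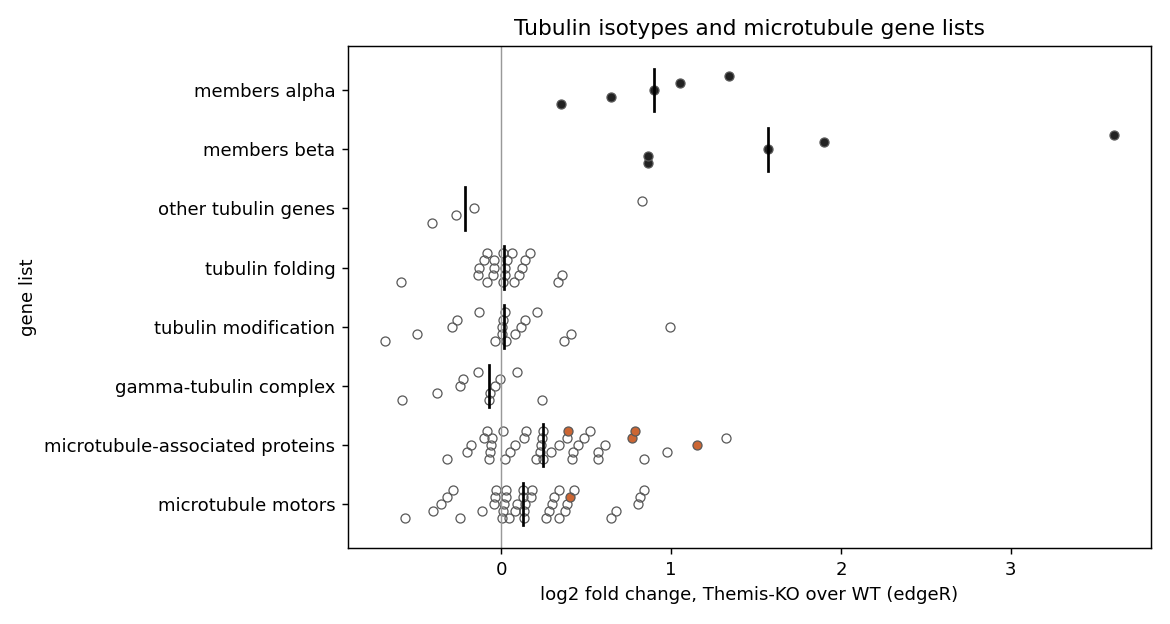
Log2 fold change of the livers labelled *Themis*-KO over those labelled WT (edgeR) for every tested gene of the family and of 6 related gene lists; each point is a gene, vertical bars are list medians, black points are the 10 isotypes (shown without a test), orange points are genes of other lists with an adjusted p under 0.05 and open points the rest. The alpha and beta medians lie at 0.90 and 1.57, and the medians of the other lists between −0.21 and 0.25.

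The genes whose pattern over the 6 livers was most like that of *Tubb2b* were *Sdcbp2*, *Nrg1*, *Ly6d*, *Elovl7* and *Lgals3*. Likeness was the root mean square difference of the centred log2 CPM, computed for 13033 genes that were no members and had a mean of at least 1 CPM, over which its median was 1.46. It was 0.36 for *Sdcbp2*, 0.387 for *Nrg1*, 0.408 for *Ly6d*, 0.46 for *Elovl7* and 0.464 for *Lgals3*. *Lgals3*, which encodes galectin-3, for example, had 13.2, 15.8 and 28.2 CPM in the livers labelled WT and 121.7, 90.1 and 38.0 CPM in those labelled *Themis*-KO, with liver 3 again the highest and the lowest of its group. *Nrg1*, the growth factor neuregulin 1, had 1.47, 2.78 and 4.18 CPM against 32.1, 26.1 and 7.70 CPM. Of the family, *Tubb2a* was the closest to *Tubb2b* at 0.573, with 17 of the 13033 genes closer, then *Tubb6* at 0.687 with 46 closer, and *Tuba4a* was the farthest at 1.29 with 2475 closer. These values rest on 6 livers that include the contrast the family was chosen on.

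Markers of several liver cell types moved with the tubulin sums. Beside the counts of calls that follow, 4.97% of all genes tested were higher and 4.14% lower in edgeR. All 10 cholangiocyte markers were tested and 3 were higher in edgeR (*Spp1*, *Tspan8* and *Cldn7*), with summed levels of 173.4 to 211.1 CPM in the livers labelled WT and 411.4 to 649.7 CPM in those labelled *Themis*-KO. For hepatic stellate cells 6 of 12 were higher, with sums of 404.8 to 457.2 and 609 to 675.7 CPM, led by the fibrillar collagens *Col1a1*, *Col1a2* and *Col3a1*. All 12 log2 fold changes of this list were above 0, but those of *Lrat* (0.12), *Reln* (0.05) and *Des* (0.22) were small and their livers overlapped between groups. In the macrophage list 3 of 12 were higher (*Cd68*, *Trem2* and *Gpnmb*), and the sums overlapped, at 369.9 to 637.3 and 598.6 to 785 CPM. Other genes of that list had negative log2 fold changes, *Marco* of −1.29 (adjusted p = 0.248, edgeR), *Cd163* of −0.96 (adjusted p = 0.0562) and *Timd4* of −0.63 (adjusted p = 0.239), and 1 was lower at an unadjusted p of 0.05 and 1 in DESeq2. Proliferation genes had 3 of 12 higher (*Mki67*, *Ccnb2* and *Plk1*) and sums of 16.6 to 28.0 and 35.5 to 38.5 CPM. Of 6 genes named for disease-associated hepatocytes 5 were higher, with sums of 132.7 to 227.2 and 334.7 to 618.7 CPM, and all 6 are genes that the study itself named for these cells. Hepatocyte markers went the other way, with 3 of 12 lower (*Serpina1a*, *Ass1* and *Cyp2e1*) and sums of 73540 to 79130 and 57790 to 62890 CPM. In the endothelial list 1 of 10 tested genes was higher and for T cells 1 of 6 lower, 1 of 3 nerve and Schwann cell genes was lower, and of 4 neutrophil, 6 B cell and 3 mesothelial genes none was called in edgeR (4, 0 and 0 at an unadjusted p of 0.05, and 1, 0 and 0 in DESeq2). Without *Themis*-KO 1, 1 cholangiocyte marker was called higher and 0 of the stellate cell, macrophage, proliferation and disease-associated hepatocyte genes. The part of these cell types in the tubulin values was not tested.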

How the data were processed

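Bulk poly(A) RNA of 6 livers, 3 labelled WT and 3 labelled *Themis*-KO, was sequenced paired-end. Per the labels and methods, the authors trimmed reads with cutadapt 2.3, mapped them to GRCm38 with STAR 2.7.8a and deposited expected counts per gene from RSEM 1.3.3, which splits reads that match more than 1 gene. The estimated counts are whole numbers in the table, and were used as deposited. The annotation release is not given in the sources used here.

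Groups and replicate numbers came from the labels. Counts were fitted in R 4.3.3 with edgeR 4.0.16 (filterByExpr, TMM, glmQLFit, glmQLFTest, no covariates), with Benjamini-Hochberg adjustment over 14496 genes; 10907 genes with low counts were left out. TMM-normalized CPM had nothing added. SE were derived from the fold change and its F statistic. The biological coefficient of variation was 0.157, and depth limits genes such as *Tuba8* and *Tubb2b* most. DESeq2 1.42.0, other scalings and filters, a replicate block, a mitochondrial covariate and each liver left out were alternatives. Members and gene lists were chosen with earlier results of these data known. Likeness used log2 of CPM with 0.5 added. Named genes were all members, all remaining tubulin genes, pathway genes with an adjusted p under 0.05 (at most 4 a list and direction) and the 5 genes most like *Tubb2b*; single markers, *Tbccd1* and *Ttc5* were named after their values were seen. Transcripts came from GENCODE vM21, promoters from RefSeq, and figures from matplotlib 3.10.9. No sequence of *Tubb6* is printed, and some coding ends are not reported here.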

Additional observations from a re-analysis of the deposited data

How the results depend on the processing

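Over 14 alternatives, all 138 log2 fold changes of members were above 0, from 0.30 to 3.99, and 134 moved by less than the spread between livers. A filter of at least 10 counts in every liver dropped *Tuba8* and *Tubb2b*, which have no value there. The sums did not turn either. Leaving out each liver in turn gave log2 ratios of 0.71 to 0.86 for alpha, 1.33 to 1.66 for beta and 1.12 to 1.38 for all 10, and scaling by total counts alone moved alpha to 0.93. With WT 1 and WT 2 left out together, a choice made after seeing the data, they were 0.67, 1.21 and 1.03. Counts of calls were far less stable. Leaving out 1 liver gave 0 to 9 members past the threshold, 8 to 2228 genes higher and 12 to 2039 lower, with 0 to 23 pathway genes higher and 0 to 8 lower. The mitochondrial split as a covariate takes up WT 1 and WT 2, so that fit sets the livers labelled *Themis*-KO against WT 3 alone. It gave log2 fold changes of members from 0.44 (*Tuba4a*) to 3.11 (*Tubb2b*), and its calls are left out because only 1 liver labelled WT remains. Scaling by total counts gave 1449 higher and 387 lower genes and 12 pathway genes higher, and it moved the median of all genes to 0.15 on the log2 scale. No filter gave 1212 and 967, with 8 pathway genes higher and 3 lower. DESeq2 gave 1279 and 1090, with 11 and 3. The cause of these changes was not tested.

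With the replicate number as a block, 1 member (*Tubb2b*), 17 higher and 45 lower genes and 0 pathway genes were called. The study speaks of 3 pairs of livers, but the labels do not say which livers belong together. Deviations of same-numbered livers correlated at −0.31 to 0.01, a weak guide with 3 livers in each group. The main fit was made without pairs, and whether the numbers pair the livers stays unknown. At these depths single counts limit *Tuba8* and, in livers labelled WT, *Tubb2b*.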
